A study of Mus musculus with 32 samples.

Results

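Euploid (+/+) cerebral cortex libraries from 6-week-old mice were divided into a group rich and a group poor in RNA of the dopamine receptor gene Drd1, so that both groups were chosen by the measured level of that transcript. Drd1 was measured as CPM, the raw count of the gene divided by the total of its library and multiplied by 1000000. A library with a Drd1 CPM of 50 or more was placed in the high group and any other in the low group, which gave 5 high and 7 low libraries among the 12 +/+ libraries of a series of 32. The high group held 2 females and 3 males and the low group 4 females and 3 males, 1 animal per library. The other 20 libraries came from mice of the same age, 10 of genotype Ts65Dn;Df(17)2 and 10 of genotype Dp(16)1/Df(16)8. Both of these genotypes carry an additional copy of a distal segment of chromosome 16; the +/+ animals have 2 copies and no rearrangement. Ts65Dn holds the segment on a freestanding small chromosome and Dp(16)1 as a duplication within chromosome 16, and the labels pair each with a deficiency, Df(17)2 or Df(16)8. Strain background, litters and dissection borders are not given in the sources used here. The series as a whole asks which effects of a trisomy depend on gene dose.

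In the striatum, which lies beneath the cortex and next to the septum, most neurons are GABAergic medium spiny projection neurons. Those of the direct pathway make the D1 receptor (Drd1) with the peptide precursors Tac1 and Pdyn, and those of the indirect pathway make the D2 receptor (Drd2), the adenosine receptor Adora2a and the enkephalin precursor Penk. Both types signal through the olfactory-type G protein and adenylyl cyclase 5 to cyclic AMP and the phosphatase regulator DARPP-32 (Ppp1r1b). Drd1 is also made by some cortical neurons, so other striatal transcripts were used to check what the division by Drd1 follows.

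Drd1 itself, which chose the groups, stood at 85.0, 174, 166, 119 and 86.1 CPM in the high libraries, +/+ replicates 2, 6, 8, 11 and 12 in that order, and at 12.4 to 36.1 CPM in the low libraries with a median of 30.7. The library just inside the bound was replicate 2 at 85.0 CPM and the one just outside was replicate 7 at 36.1 CPM. Totals were 6375698 to 8172202 counts in the high group and 6500902 to 8532009 in the low group. The share of counts in mitochondrially encoded genes was 2.65% to 3.61% in the high group and 2.31% to 2.85% in the low group, and in 0 of the 12 libraries did sex-linked transcripts go against the label. The labels also carry animal numbers: 4 animals, replicates 4, 5, 9 and 10, are numbered from 32128 to 32252 and the other 8 +/+ animals from 32333 up, and all 4 lower-numbered animals fell in the low group. No label says that the numbers mark a batch, and whether they do was not tested. Replicate 11 stood apart from the other high libraries in septal transcripts, and low replicate 1 in transcripts of the choroid plexus. Below, Zic1 and Slc17a7 are given with and without replicate 11, and Ttr with and without replicate 1. Other ranges include these libraries. Here 2 kinds of measurement follow. The difference between high and low +/+ libraries is a description, because a measured transcript chose the groups. The slope of each gene on the log2 Drd1 CPM across the 20 aneuploid libraries, which the choice did not use, is a test. The gene lists were chosen with earlier results of these data known, so counts by list are a description in both sets.

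Promoters of a pair of genes are shown because each gene followed Drd1 in both sets of animals and each promoter holds a textbook element of a pathway described below. Rarb, a retinoic acid receptor gene of striatal neurons, has the retinoic acid response element, GGTTCA and AGTTCA with 5 bases between them, at -53 to -37 from its start, and Gpr6, an orphan receptor gene of indirect pathway neurons, has the cyclic AMP response element TGACGTCA at -78 to -71. The sequences are from RefSeq, GRCm38.p6, minus strand, written 5′ to 3′ from 250 bases before to 50 bases after the start, chr14:16575427-16575726 for Rarb and chr10:41072241-41072540 for Gpr6. Capitals mark the element.
Rarb: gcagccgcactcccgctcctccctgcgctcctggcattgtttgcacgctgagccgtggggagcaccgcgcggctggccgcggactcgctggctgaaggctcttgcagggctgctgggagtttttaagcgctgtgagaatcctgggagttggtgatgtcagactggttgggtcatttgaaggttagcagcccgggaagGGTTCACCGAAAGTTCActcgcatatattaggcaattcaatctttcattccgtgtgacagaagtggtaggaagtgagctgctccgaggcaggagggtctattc
Gpr6: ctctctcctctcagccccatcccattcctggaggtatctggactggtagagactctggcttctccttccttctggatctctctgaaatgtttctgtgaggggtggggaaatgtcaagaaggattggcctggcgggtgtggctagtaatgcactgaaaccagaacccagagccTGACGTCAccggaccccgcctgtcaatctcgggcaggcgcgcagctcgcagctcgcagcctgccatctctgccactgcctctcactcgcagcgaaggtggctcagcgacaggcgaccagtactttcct
Searched on both strands, the first element was in 2 of 32851 mouse promoter windows of this length (0.00609%) and the second in 588 (1.79%). Of the 48 genes on the striatal neuron lists 34 had windows, 53 in all, and each element was in 1 of these 53. Among 642 windows of genes higher in the high group the cyclic AMP element was in 14 (2.18%). The matches describe letters in these windows and say nothing about binding.

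Transcripts of striatal medium spiny neurons separated the groups without overlap. Drd2 stood at 43.6, 100, 90.8, 60.0 and 33 CPM in high replicates 2, 6, 8, 11 and 12 and at 1.92 to 15.2 CPM in the low group, median 10.8, a difference of log2 2.80 (SE 0.39) or 6.98-fold. Penk stood at 205, 443, 372, 309 and 220 CPM against 26.3 to 99.8, median 65.3, 4.72-fold. Tac1 stood at 29.1, 83.3, 88.1, 74.4 and 54.3 CPM against 4.45 to 16.6, median 9.62, 5.99-fold. For each of the 3 genes the lowest high library was above the highest low library, replicates 6 and 8 were the highest pair, and replicates 4 and 5 were the lowest pair. The direct and indirect pathway markers thus went with Drd1 together, so the division does not separate one type of medium spiny neuron from the other. In these bulk samples, more striatal cells in a sample and more of these RNAs per cell cannot be told apart.

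**Figure D1:**
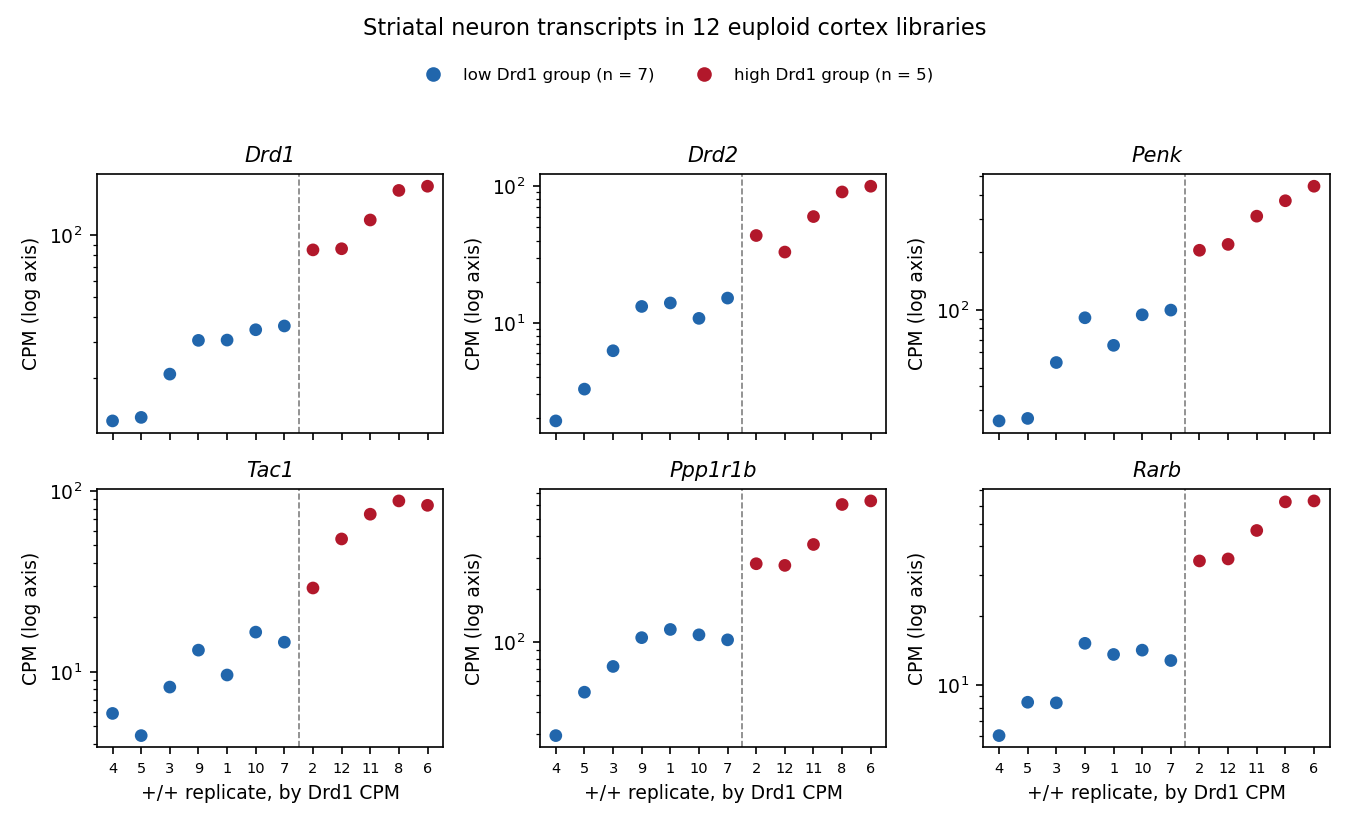
CPM (log axis) of Drd1, which set the groups, and of 5 other striatal neuron genes in each of the 12 +/+ libraries, ordered by Drd1 CPM; each point is 1 library and the dashed line is the bound of the rule. In every panel the 5 high libraries lie above the 7 low ones, with Drd2 from 33 to 100 CPM against 1.92 to 15.2.

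Several genes of signalling downstream of the dopamine receptors were higher in the high group. Gnal, the G protein alpha subunit that couples D1 receptors to cyclase, stood at 354, 625, 594, 489 and 396 CPM in high replicates 2, 6, 8, 11 and 12 against 110 to 227 CPM, median 191, in the low group. Adcy5, the striatal adenylyl cyclase, stood at 508, 947, 848, 693 and 489 CPM against 125 to 277, median 221. Ppp1r1b stood at 279, 635, 606, 359 and 273 CPM against 29.4 to 118, median 103. These 3 genes did not overlap between groups, and high replicates 6 and 8 again exceeded the others. Pde10a, the cyclic nucleotide phosphodiesterase of medium spiny neurons, was at 512 to 1290 CPM against 148 to 259. Rgs9, which speeds the switching off of G proteins, was at 166 to 375 CPM against 12.1 to 57.8, and Gng7, the gamma subunit that partners Gnal, at 289 to 633 CPM against 61.3 to 146. The size of the difference ran from log2 1.42 (SE 0.17) for Gnal to 2.77 (SE 0.35) for Rgs9 among these genes. All 20 genes on the list of transcripts shared by both pathways were called higher, meaning an adjusted p under 0.05 by edgeR's quasi-likelihood test, with a median of log2 2.01; the median of all tested genes was 0.00331. Of 15678 tested genes 7.91% were called, 4.17% higher and 3.74% lower. A gene was tested if it reached 1.32 CPM, the bound of the filter on low counts, in at least 5 of the 12 libraries. Of the tested genes 347 reached it in under 5 low libraries and in more high ones, and are said here to have passed through the high libraries; 71 of the genes called higher are among them, including Gpr149 and Ido1 of the list of 20.

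Not every gene of the cyclic AMP pathway was higher. On the list of dopamine and cyclic nucleotide signalling genes, 14 of 23 tested members were called higher and 1 lower, with a median of log2 0.51. The member called lower was Prkar1b, a regulatory subunit of protein kinase A, at log2 -0.37, while Prkar2b, another regulatory subunit, was higher at log2 0.51. Prkaca and Prkacb, the catalytic subunits, were at log2 -0.08 and -0.10 without being called. Drd3, the D3 receptor gene of the ventral striatum, was at 1.47 to 4.45 CPM against 0 to 0.396, and Drd5 at 1.36 to 4.50 CPM against 0.283 to 1.46. Both passed the filter through the high libraries. The monoamine oxidase genes Maoa and Maob, whose enzymes break down dopamine, were at log2 0.07 and 0.36 and were not called.

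Direct pathway genes were called in 7 of 9 cases, all higher, with a median of log2 1.15. Pdyn, the dynorphin precursor, stood at 35.4, 72.2, 73.1, 67.3 and 55.1 CPM in high replicates 2, 6, 8, 11 and 12 and at 15.7 to 26.5 CPM, median 21.9, in the low group. Isl1, a transcription factor of direct pathway and cholinergic neurons, stood at 4.89, 8.90, 9.88, 14.3 and 6.36 CPM against 0 to 1.85, median 0.666. Neither gene overlapped between groups; Isl1 was listed at 0 in low replicates 4 and 5 and was highest in replicate 11. Slc35d3, which is needed for D1 receptor traffic, was at 7.34 to 21.2 CPM against 0 to 3.23. Isl1 and Slc35d3 passed the filter through the high libraries. Eya1 and Sfxn1 were at log2 -0.01 and 0.07 and were not called.

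Indirect pathway genes were called in 6 of 9 cases, all higher, with a median of log2 1.25. Adora2a, the adenosine receptor gene of these cells, stood at 56.2, 109, 111, 65.6 and 47.7 CPM in high replicates 2, 6, 8, 11 and 12 and at 1.18 to 23.2 CPM, median 14.6, in the low group. Gpr6 stood at 14.6, 26, 22.3, 18.8 and 14.1 CPM against 1.18 to 6.99, median 3.19. For both genes the groups did not overlap, and low replicates 4 and 5 held the lowest values. Gpr52, another receptor gene of these cells, was at 24.3 to 39.2 CPM against 7.38 to 16.8. Grik3, Ptprm and Plxdc1 were at log2 0.01, 0.16 and -0.27 without being called.

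Of the striatal transcription factors 12 of 13 were called higher, with a median of log2 1.25, and Ikzf1 at log2 0.27 was not called; Isl1 and Six3 passed the filter through the high libraries. Six3, which acts in indirect pathway neuron development, stood at 16.6, 24.6, 26.4, 26.1 and 14.2 CPM in high replicates 2, 6, 8, 11 and 12 and at 0 to 5.67 CPM, median 1.98, in the low group. Foxp2 stood at 49.3, 77.9, 72.9, 70.1 and 52.2 CPM against 18.1 to 30.4, median 24. Meis2 stood at 156, 233, 265, 212 and 154 CPM against 48.6 to 109, median 83.6. None of these 3 factors overlapped between the groups, and the fold was 8.00 for Six3, 2.51 for Foxp2 and 2.36 for Meis2. Foxp2 and Meis2 are also made in cortex, where Foxp2 marks deep layers.

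Retinoic acid acts through pairs of nuclear receptors. Rarb stood at 34.6, 63.0, 62.4, 46.9 and 35.3 CPM in high replicates 2, 6, 8, 11 and 12 and at 6.05 to 15.2 CPM, median 12.8, in the low group. Rxrg, its striatal partner receptor, stood at 18.7, 43.8, 45.2, 31.5 and 20.2 CPM against 0.703 to 8.79, median 7.38. Both were without overlap, 4.15-fold and 5.37-fold higher. The other receptors Rara, Rarg, Rxra and Rxrb were at log2 -0.08, 0.49, 0.00 and 0.02 and were not called. Crabp1, a retinoic acid binding protein gene, was the only other member of the list called, 3 of 14 in all; it overlapped between groups, from 1.25 to 2.51 CPM against 0 to 1.45, and passed the filter through the high libraries. Without replicate 6 Crabp1 was no longer called.

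Striatal cholinergic interneurons release acetylcholine from a small number of large cells, and their transcripts were among the highest folds of the comparison. Chat, the acetylcholine-making enzyme, stood at 4.28, 10.6, 10.5, 12 and 6.48 CPM in high replicates 2, 6, 8, 11 and 12 and at 0.117 to 0.978 CPM, median 0.738, in the low group, log2 3.75 (SE 0.35). Slc5a7, the choline transporter, stood at 15.1, 29.4, 30.4, 38.8 and 17.1 CPM against 1.06 to 5.01, median 2.80, log2 3.13 (SE 0.26). Lhx8, a transcription factor of forebrain cholinergic neurons, stood at 3.67, 4.33, 5.80, 10.1 and 3.36 CPM against 0 to 1.23, median 0.283. Groups did not overlap for any of the 3, and replicate 11 was the highest library for each. Slc18a3, the vesicular acetylcholine transporter, was at 1.59 to 6.82 CPM against 0.133 to 1.32. Its gene lies within the span of Chat, so its reads may not be fully told apart from those of Chat. Of the 6 listed genes 4 passed the filter on low counts, of which Chat, Lhx8 and Slc18a3 passed through the high libraries, so the count of 4 called higher is partly set by the filter. The summed level of all 6 listed genes was 27.2 to 82.8 CPM against 1.86 to 8.97. The basal forebrain and septum hold cholinergic neurons as well, and septal markers were higher in the same libraries (below).

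Of the 20 listed GABAergic genes 8 were called higher and 1 lower, median log2 0.32. Gad2, a GABA-making enzyme, stood at 319, 424, 479, 604 and 382 CPM in high replicates 2, 6, 8, 11 and 12 and at 154 to 221 CPM, median 178, in the low group, log2 1.16 (SE 0.094). Dlx6os1, the non-coding transcript of the Dlx5 and Dlx6 locus of forebrain GABAergic neurons, stood at 61.1, 68.4, 73.1, 70.3 and 66.2 CPM against 29.5 to 47.4, median 38.0. It overlaps Dlx6, but not Dlx5, and without a stated strand setting the reads of Dlx6os1 and Dlx6 cannot be told apart. Neither Gad2 nor Dlx6os1 had CPM values that overlapped between groups. Dlx5 and Dlx6 were at log2 1.34 and 1.65. The one called lower was Vip, a peptide of a cortical interneuron type, at log2 -0.76; Sst, Npy, Pvalb and Reln were at log2 -0.07, -0.22, -0.74 and 0.11 and were not called.

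Among receptors for other modulators 7 of 19 tested genes were called higher and 2 lower. Htr1b, a serotonin receptor on medium spiny neuron terminals, stood at 42.0, 59.6, 54.6, 40.0 and 36.9 CPM in high replicates 2, 6, 8, 11 and 12 against 17.7 to 23.5 CPM, median 21.2. Oprk1, the dynorphin receptor, stood at 27.2, 37.9, 29.6, 39.6 and 33 CPM against 3.98 to 18.7, median 9.98. Neither overlapped between groups. Adra2c, an adrenergic receptor, was at 22.6 to 31.5 CPM against 8.63 to 17.7. The members called lower were Chrm3 at log2 -0.62 and Adora1 at -0.39. Genes that mark the striosome and matrix compartments were called higher in 4 of 9 cases, median log2 0.37. Rasgrp2, a matrix gene, stood at 30, 54.5, 57.9, 37.0 and 24.2 CPM against 6.20 to 13.2, median 11.5, and Id4, also of the matrix, at 114, 128, 132, 142 and 104 CPM against 55.9 to 82.2, median 65.8, again with no overlap. The calls of Sema5b and Tshz1, the other members called, were lost on leaving out single libraries.

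Cortical excitatory neuron genes went the other way, by smaller amounts. Of 15 genes common to cortical excitatory neurons 11 were called lower and 0 higher, all 15 differences were negative and the median was log2 -0.66. Slc17a7, the vesicular glutamate transporter of these cells, stood at 873, 684, 722, 451 and 912 CPM in high replicates 2, 6, 8, 11 and 12 and at 1000 to 1220 CPM, median 1050, in the low group, log2 -0.61 (SE 0.14). Neurod6, a transcription factor of these cells, stood at 38.2, 20, 21.8, 19.1 and 22.1 CPM against 35.8 to 68.5, median 47.2. Slc17a7 did not overlap between groups and was lowest in replicate 11; Neurod6 overlapped because replicate 2 lay within the low range. Without replicate 11 Slc17a7 was at log2 -0.47, and without replicate 6, at -0.58, it was no longer called.

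By layer, 5 of 13 upper-layer genes were called lower and 0 higher, and 5 of 16 deep-layer genes were called lower and 1 higher. Cux2, an upper-layer factor, stood at 159, 127, 117, 91.4 and 132 CPM in high replicates 2, 6, 8, 11 and 12 and at 166 to 222 CPM, median 181, in the low group, without overlap. Fezf2, which specifies corticospinal neurons of the deep layers, stood at 18.5, 7.17, 6.43, 7.37 and 13.5 CPM against 17.4 to 35.4, median 18.3, with replicate 2 inside the low range. Etv1, a layer 5 factor, stood at 101, 60.1, 67.1, 52.7 and 97.2 CPM against 114 to 179, median 129, without overlap. Low replicates 4 and 5, the lowest in Drd1, were the highest pair for Fezf2. The deep-layer list member called higher was Syt6, a synaptotagmin of layer 6 that is also made in striatum, at 54.2, 106, 112, 92.5 and 59.9 CPM against 20.9 to 40.0, median 22.6. Without replicate 6 Fezf2 was no longer called, and Lamp5, Lhx2 and Stard8 among the upper-layer calls also lost theirs in at least 1 such omission. With a term for the lower-numbered animals 0 of the 5 upper-layer calls and 1 of the 6 deep-layer calls were left. The call left was that of Syt6, so no upper-layer or deep-layer gene called lower kept its call.

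**Figure D2:**
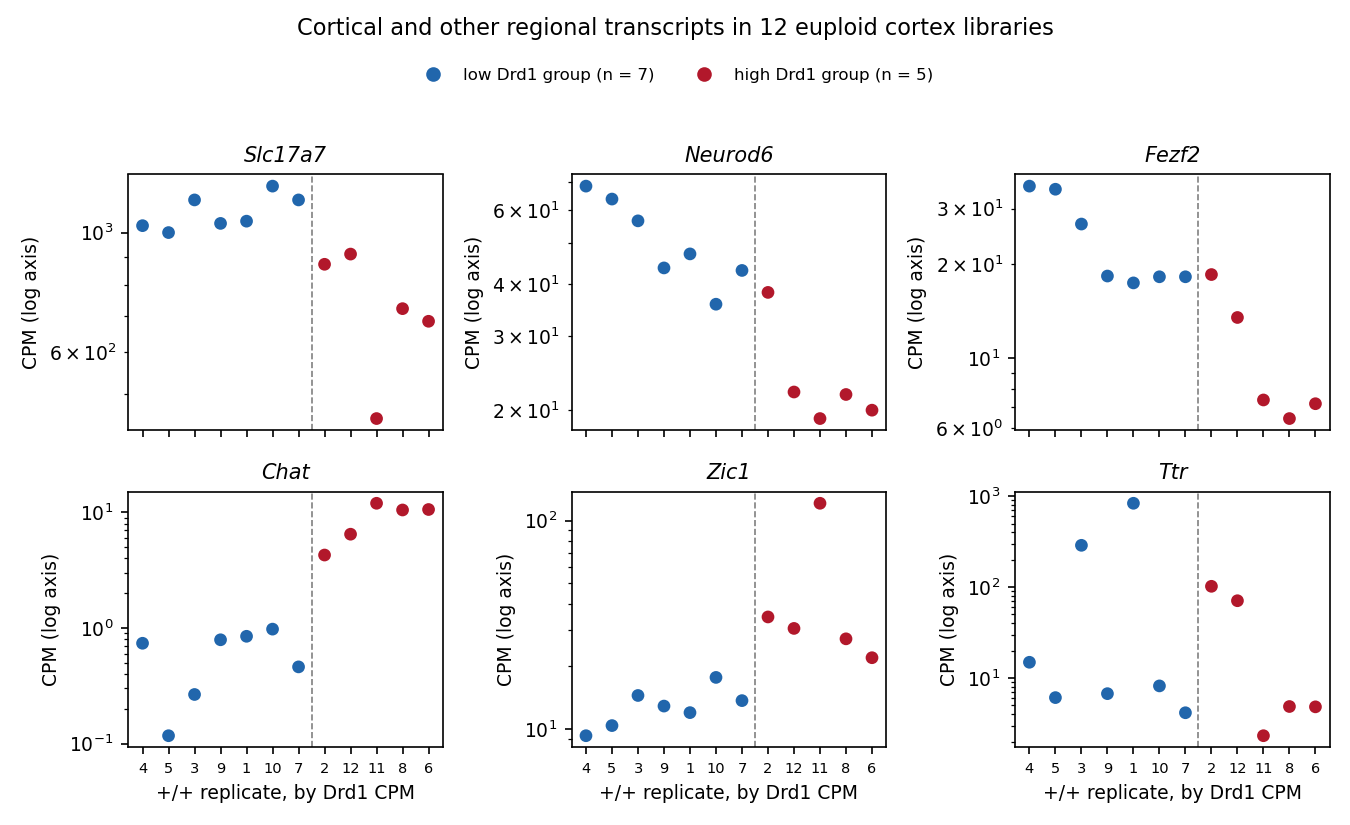
CPM (log axis) of 3 cortical excitatory neuron genes (Slc17a7, Neurod6, Fezf2), the cholinergic gene Chat, the septal gene Zic1 and the choroid plexus gene Ttr in the 12 +/+ libraries, ordered by Drd1 CPM; each point is 1 library. Zic1 reached 121 CPM in replicate 11, and Ttr was highest in low replicates 1 and 3.

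Markers of regions that border the striatum or cortex differed less uniformly. Zic1, a septal and meningeal transcription factor, stood at 34.5, 22, 27.1, 121 and 30.4 CPM in high replicates 2, 6, 8, 11 and 12 and at 9.30 to 17.7 CPM, median 12.9, in the low group. It did not overlap between groups and replicate 11 was far above the rest; its difference was log2 1.64 (SE 0.33) with that library and 1.12 without it. Nkx2-1, a factor of the medial ganglionic eminence and its derivatives, was at 1.87 to 5.59 CPM against 0 to 1.23. The summed level of the 5 septal and basal forebrain genes was 40.8 to 168 CPM against 18.2 to 31.7, and 3 of 5 were called higher, Lhx8 and Nkx2-1 after passing the filter through the high libraries. How much of the cholinergic difference comes with the septal genes was not tested. The gene spans of Zic1 and Zic4, both on the septal list, share positions, and how far their reads are separate was not tested. Th, an enzyme of the route of dopamine synthesis, which was on the olfactory bulb list, stood at 1.59, 3.09, 5.65, 5.32 and 1.87 CPM against 0.117 to 1.19, median 0.707, without overlap. Of the 5 olfactory bulb genes 3 passed the filter, Th and Doc2g through the high libraries, and were called higher; the calls of Cdhr1 and Doc2g were lost on leaving out single libraries. Of the hippocampal list 1 of 7 tested genes was called, Zbtb20, at 462, 578, 578, 714 and 533 CPM against 321 to 441, median 333. Of the thalamic list 4 of 10 were called higher, Tcf7l2, Prkcd, Synpo2 and Tnnt1, the last after passing the filter through the high libraries. Each of these calls was lost on leaving out at least 1 library. The list median was log2 0.09, and the summed level was 268 to 336 CPM against 267 to 354.

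Choroid plexus genes did not differ between the groups in a shared direction. Ttr, the most abundant transcript of that tissue, stood at 102, 4.82, 4.86, 2.32 and 70.8 CPM in high replicates 2, 6, 8, 11 and 12 and at 4.15 to 835 CPM, median 8.19, in the low group, where replicates 1 and 3 held 835 and 288. The groups overlapped, and the Ttr difference was log2 -0.34 with replicate 1 and 0.46 without it. Of the 8 listed choroid plexus genes 3 were tested and 0 were called. The others tested were Kl at log2 -0.32 and Clic6 at 1.0. Clic6 was at 12.5 to 19.9 CPM in the high group and at 1.17 to 34.4 CPM, median 3.25, in the low group.

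Glial, vascular and blood transcripts gave few calls or none. Of 12 astrocyte genes and 14 oligodendrocyte genes 0 were called, with medians of log2 -0.01 and 0.02. Mbp, the myelin basic protein gene, stood at 1320, 1860, 1700, 2080 and 1180 CPM in high replicates 2, 6, 8, 11 and 12 and at 942 to 2580 CPM, median 1540, in the low group, with full overlap. Of 16 endothelial and mural genes 0 were called although 15 differences were positive, median log2 0.17. Microglial genes were called higher in 2 of 12 cases, among them C1qa, and oligodendrocyte precursor genes in 2 of 7, C1ql1 and Lhfpl3. Of these 4 calls only that of Lhfpl3, at 31.4 to 53.1 CPM against 19.1 to 31.1, held without any 1 library. Of the 12 microglial differences 11 were positive, median log2 0.20. The summed microglial level was 328 to 424 CPM in the high group against 261 to 346 in the low group. None of the meningeal, ependymal, blood, subventricular or common reference genes was called. DESeq2 called 1560 genes in the whole comparison against 1240 by edgeR, and 3372 genes had an unadjusted p under 0.05 by edgeR.

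Immediate early genes, which follow neuronal activity and handling, were not called in any of 21 cases, and their median was log2 -0.10. Of the 21 differences 6 were positive. The 4 members of smallest p were all lower without being called. Egr3 was at log2 -0.55, Bdnf at -0.68, Nptx2 at -0.62 and Ier2 at -0.76. Fos stood at 59.3, 10.5, 31.5, 14.6 and 45.0 CPM in high replicates 2, 6, 8, 11 and 12 and at 12.8 to 57.2 CPM, median 30.7, in the low group, with full overlap. Among ionotropic and metabotropic glutamate receptor genes 4 of 22 were called higher and 2 lower: Grik2 and Grm4 were at log2 0.54 and 0.69, and Grin2a and Grm2 at -0.51 and -0.78. Among 13 GABA-A receptor subunits 2 were called higher, Gabrg1 and Gabrg3, at log2 0.74 and 0.60, and 1 lower. Mitochondrially encoded genes had a median of log2 0.22, with 1 of 8 called, mt-Nd2, whose call was lost on leaving out single libraries.

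**Figure D3:**
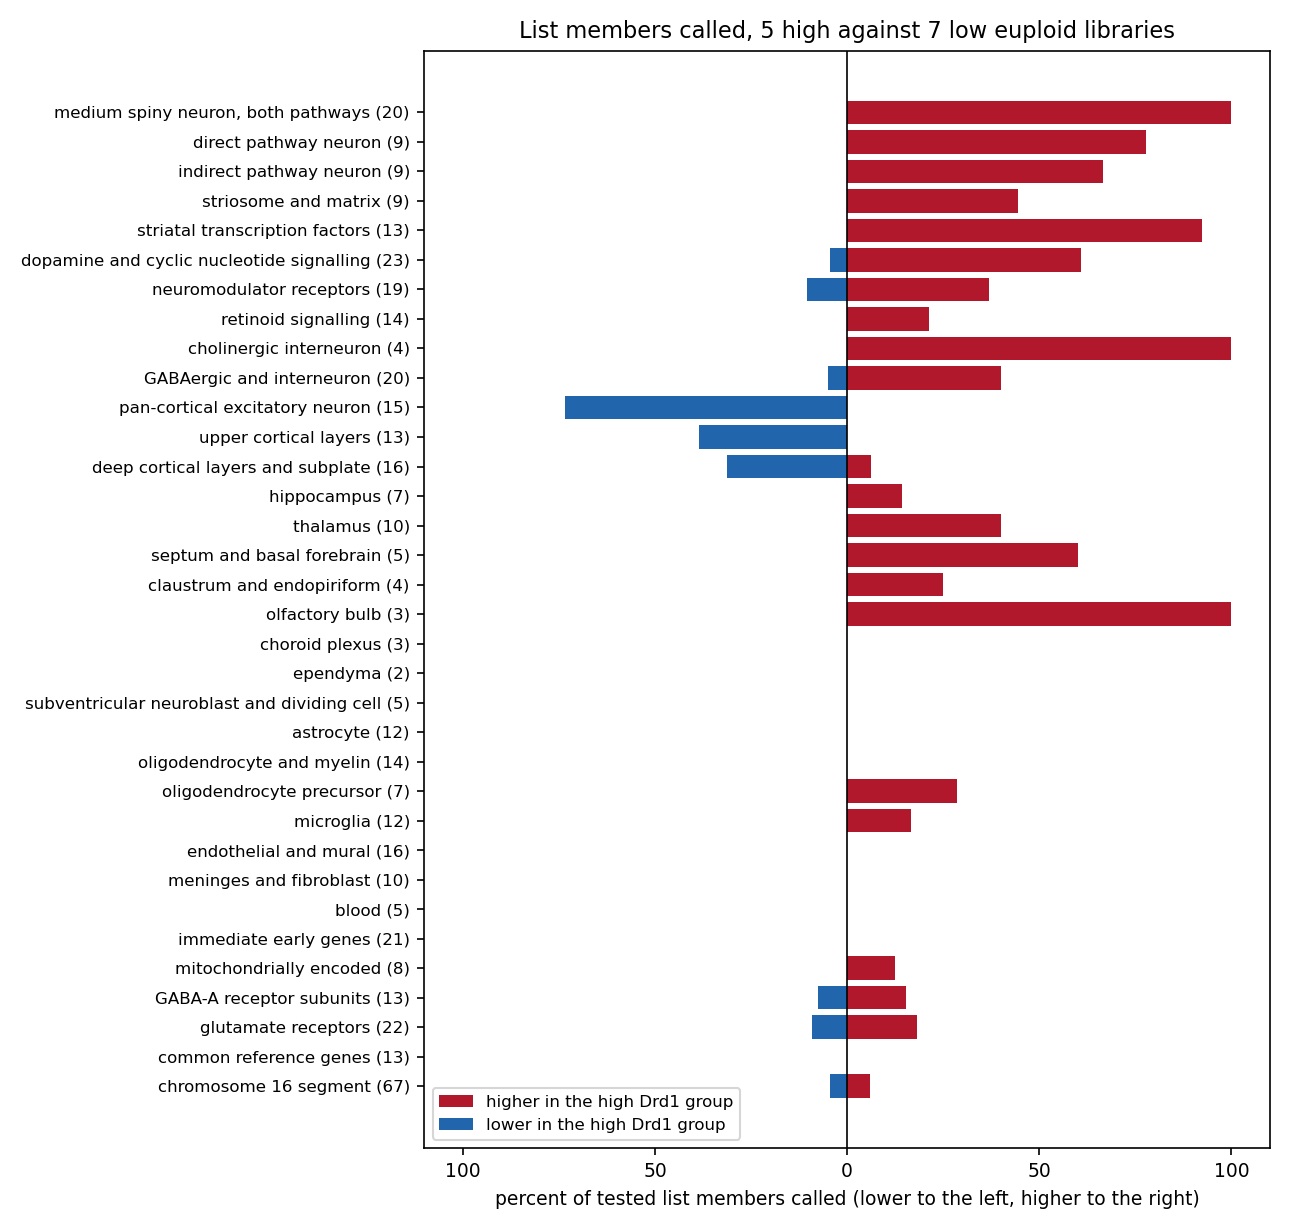
Percent of the tested members of each gene list (number tested in brackets) that were called higher (right) or lower (left) in the 5 high against the 7 low +/+ libraries. All 20 genes shared by both medium spiny neuron types were called higher, 11 of 15 pan-cortical excitatory genes lower, and 0 of 12 astrocyte genes either way.

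Over all genes, 1240 of 15678 were called, 653 higher and 587 lower. The differences were unequal in size: 221 genes were at least 2-fold higher and 33 at least 2-fold lower, and the median was log2 0.72 for genes called higher and -0.42 for genes called lower. Of the 653 called higher (4.17% of tested genes) 435 did not overlap between groups, and of the 587 called lower (3.74%) 226 did not. The calls rest on the same difference between the same libraries, so this separation is no further test. The share of all tested genes without overlap is not given here. The 10 highest folds among genes of mean log2 CPM of 2 or more were those of Chat, Serpina9, Isl1, Slc5a7, Six3, Slc35d3, Lrrc10b, Cd4, Drd2 and Rgs9, from log2 3.75 for Chat to 2.77 for Rgs9. Of these, Chat, Serpina9, Isl1, Six3 and Slc35d3 passed the filter through the high libraries, so their place in this ranking is partly set by the filter. Cd4, best known as a co-receptor of helper T cells and also made by some forebrain neurons, was at 7.98 to 24.9 CPM against 0.352 to 4.67. The further genes with the smallest p were Gad2, Id4, Pbx3, Slc10a4, Spata13 and Tac1. Slc10a4, a vesicular transporter of cholinergic and monoaminergic neurons, was at 4.16 to 11.7 CPM against 0.117 to 1.32. It also passed the filter through the high libraries. Animal numbers were unevenly spread over the groups. With a term for the lower-numbered animals the count was 152 (123 higher and 29 lower), and in the higher-numbered animals alone, 5 high and 3 low, it was 14. All 653 and all 587 genes kept their sign with that term, at medians of log2 0.63 and -0.39. The genes were called in these same libraries, so a kept sign is no further test. By list, that term left 10 of the 20 shared medium spiny neuron genes called, 5 of 9 direct and 3 of 9 indirect pathway genes, 5 of 13 striatal transcription factors, 4 of 4 tested cholinergic genes and 1 of 15 pan-cortical excitatory genes. The cholinergic count is partly set by the filter, which Chat, Lhx8 and Slc18a3 passed through the high libraries. Isl1 and Slc35d3, among the direct pathway calls left, passed it in the same way. Isl1 is also among the transcription factor calls left. The calls went from 15 to 11 on the dopamine and cyclic nucleotide list, from 9 to 5 on the GABAergic list, from 9 to 2 among neuromodulator receptors and from 4 to 2 on the striosome and matrix list. They went from 3 to 1 on the retinoid and on the septal list, from 4 to 0 on the thalamic list and from 3 to 0 on the olfactory bulb list. The septal call left was that of Lhx8, which is also on the cholinergic list. Drd3, among the dopamine list calls left, also passed the filter through the high libraries. Leaving out replicate 6 gave 503 calls and leaving out replicate 9 gave 812.

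The lowest folds were smaller and included genes of cortical neurons. Adra1d, an adrenergic receptor of cortical and hippocampal neurons, stood at 12.7, 5.93, 6.12, 4.23 and 7.48 CPM in high replicates 2, 6, 8, 11 and 12 and at 11.7 to 29.2 CPM, median 20.6, in the low group. Zbtb16, a transcription factor, stood at 78.7, 55.3, 40.2, 32.3 and 55.5 CPM against 74.7 to 241, median 101. Both overlapped through replicate 2. The others among the lowest 10 were Hkdc1 at log2 -1.44, Thbs4 at -1.41, Myl4 at -1.33, Serpinb8 at -1.18, Tgm3 at -1.14, Kcnk4 and Fezf2 at -1.10 and Krt80 at -1.09. The calls of Thbs4, Myl4, Serpinb8, Kcnk4, Fezf2 and Krt80 were lost on leaving out at least 1 library.

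Genes were then measured in the 20 aneuploid libraries, which the rule did not use. Drd1 ran from 38.3 to 159 CPM in Ts65Dn;Df(17)2, with 9 of 10 libraries at 50 CPM or more, and from 19.3 to 194 CPM in Dp(16)1/Df(16)8, with 6 of 10. A slope of 1 means that a gene doubles when Drd1 doubles. With terms for genotype and sex, 1421 genes rose with Drd1 and 1363 fell, of 15628 tested (9.09% and 8.72%), by the quasi-likelihood test of edgeR, adjusted by the Benjamini-Hochberg method. In 1 Dp(16)1/Df(16)8 library of the 20 the transcripts linked to sex went against the label; without it 2799 genes passed, against 2784 with it. Of the genes called higher between the +/+ groups, 652 were tested and 516 of these rose (79.1% of that list and 36.3% of the aneuploid one), with 0 falling and 649 of 652 slopes positive. Of the genes called lower, 577 were tested and 437 fell (75.7% and 32.1%), with 0 rising and 575 slopes negative. No +/+ animal enters the slope, so the 2 sets share no sample.

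**Figure D4:**
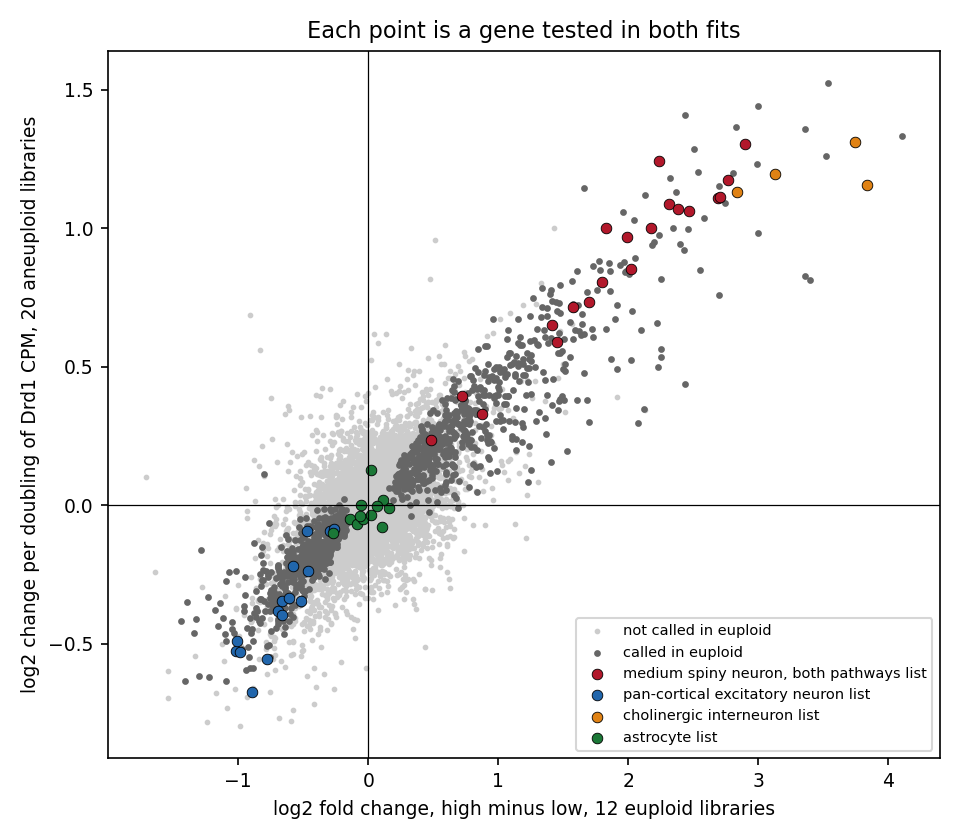
Each point is a gene tested in both fits: the log2 difference between the high and low +/+ groups (x axis) and the log2 change per doubling of Drd1 CPM in the 20 aneuploid libraries (y axis), with genes called in +/+ in dark grey and 4 lists in colour. Medium spiny and cholinergic genes lie at the upper right, pan-cortical excitatory genes at the lower left and astrocyte genes near 0 on both axes.

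Several striatal genes were close to proportional to Drd1 in the aneuploid animals. Tac1 had a slope of 1.04 (SE 0.045, adjusted p = 3.0e-13, edgeR), Gpr6 of 1.00 (SE 0.049), Penk of 0.97 (SE 0.072) and Pde10a of 0.97 (SE 0.045). Drd2 was steeper at 1.20 (SE 0.065) and Rgs9 at 1.17 (SE 0.048). Gnal (0.65, SE 0.022), Adcy5 (0.73, SE 0.028) and Gng7 (0.85, SE 0.027) were shallower, and Gng7 had the smallest adjusted p, 3.0e-15, in that test. Pde1b and Gprin3 were, with Gng7, Gnal and Adcy5, among the 6 genes of smallest p. Penk spanned 138 to 438 CPM, median 335, across the Ts65Dn;Df(17)2 libraries and 26.3 to 503 CPM, median 324, across the Dp(16)1/Df(16)8 libraries. The latter range thus reached down to the lowest +/+ library.

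By list, all 20 medium spiny genes shared by both pathways rose with Drd1, with a median slope of 0.985, as did 7 of 9 direct pathway genes, 6 of 9 indirect pathway genes and 12 of 13 striatal transcription factors. These counts describe lists chosen with earlier results of these data known. Eya1, Sfxn1, Grik3, Ptprm, Plxdc1 and Ikzf1, which were not called between the +/+ groups, did not pass here either, with slopes between -0.06 and 0.19. Rarb rose with a slope of 0.89 (SE 0.037) and Rxrg with 0.92 (SE 0.054), whereas Crabp1, at 0.54 (SE 0.19), had an adjusted p of 0.055 in the edgeR quasi-likelihood test. All 6 cholinergic genes were tested here and rose, Slc5a7 with a slope of 1.20 (SE 0.13). Gad2 rose with 0.45 (SE 0.049). Of the dopamine and cyclic nucleotide list 15 rose and 2 fell, Prkar1b (-0.16) and Prkacb (-0.07).

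Of the pan-cortical excitatory genes 11 of 15 fell with Drd1 and 0 rose. Slc17a7 fell with a slope of -0.33 (SE 0.070) and Neurod6 with -0.53 (SE 0.11). Of the upper-layer genes 6 of 13 fell, among them Cux2 at -0.22 (SE 0.055), and of the deep-layer genes 5 of 16 fell and 2 rose, with Etv1 at -0.42 (SE 0.034), Fezf2 at -0.63 (SE 0.10) and Syt6 at 0.77 (SE 0.078). Some lists with no call in +/+ had calls in this larger set: 6 of 20 tested immediate early genes fell, among them Ier2 (-0.46) and Bdnf (-0.36), and 6 of 16 endothelial and mural genes rose, among them Myh11 (0.39) and Tagln (0.45). Zic1, at 0.61 (SE 0.22), had an adjusted p of 0.052 in the edgeR quasi-likelihood test, and astrocyte genes had 1 rising and 1 falling of 12. Whether these differences between +/+ and aneuploid animals exceed the error was not tested.

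The difference between the +/+ groups was also compared between females and males. For the interaction of sex and group 0 genes were called by edgeR's quasi-likelihood test, with a smallest adjusted p of 0.232 and 918 genes at an unadjusted p under 0.05; limma voom also called 0. With 2 females and 3 males in the high group the error of this term is large, and leaving out replicate 3 gave 56 calls.

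The chromosome 16 segment that the aneuploid animals carry in an additional copy is at normal dose in every +/+ animal, so its dose does not differ between the groups. Of 79 listed segment genes 67 were tested and 7 were called, 4 higher and 3 lower, where 7.91% of all tested genes were called, and the list median was log2 0.00. Pcp4, which encodes a small calmodulin regulator made in striatum and deep cortex (GRCm38, chromosome 16, 96467606 to 96525793), stood at 114, 206, 178, 131 and 105 CPM in high replicates 2, 6, 8, 11 and 12 and at 61.1 to 113 CPM, median 74.9, in the low group, log2 0.93 (SE 0.19). The groups overlapped through low replicate 1, at 113 CPM. B3galt5, a glycosyltransferase gene, stood at 39.8, 61.7, 64.5, 63.7 and 45.5 CPM against 24.1 to 35.2, median 32.9, without overlap. Hmgn1, a nucleosome-binding protein gene, was at 33.8 to 48.7 CPM against 23.5 to 29.8, and Cbr3, a carbonyl reductase gene, at 5.23 to 9.41 CPM against 1.52 to 4.16, also without overlap. Kcnj6, a G protein-gated potassium channel, stood at 73.2, 68.5, 54.4, 59.2 and 73.4 CPM against 78.0 to 116, median 103, without overlap. Dscam, a cell adhesion gene, and the kinase gene Hunk were lower at log2 -0.33 and -0.49 with overlap.

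In the aneuploid libraries the same 7 genes followed Drd1 in the same direction and passed the threshold. Pcp4 rose with a slope of 0.46 (SE 0.045), B3galt5 with 0.48 (SE 0.045), Cbr3 with 0.51 (SE 0.053) and Hmgn1 with 0.14 (SE 0.032), while Kcnj6 fell with -0.24 (SE 0.050), Hunk with -0.18 (SE 0.038) and Dscam with -0.13 (SE 0.029). Of the 69 segment genes tested there 9 rose and 8 fell, where 9.09% of all tested genes rose and 8.72% fell. Whether the segment list differs from all tested genes was not tested. In the +/+ animals 1 of the 7 calls held with the animal number term, that of B3galt5, and 0 held in the higher-numbered animals alone; without replicate 6 the count was 3.

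**Figure D5:**
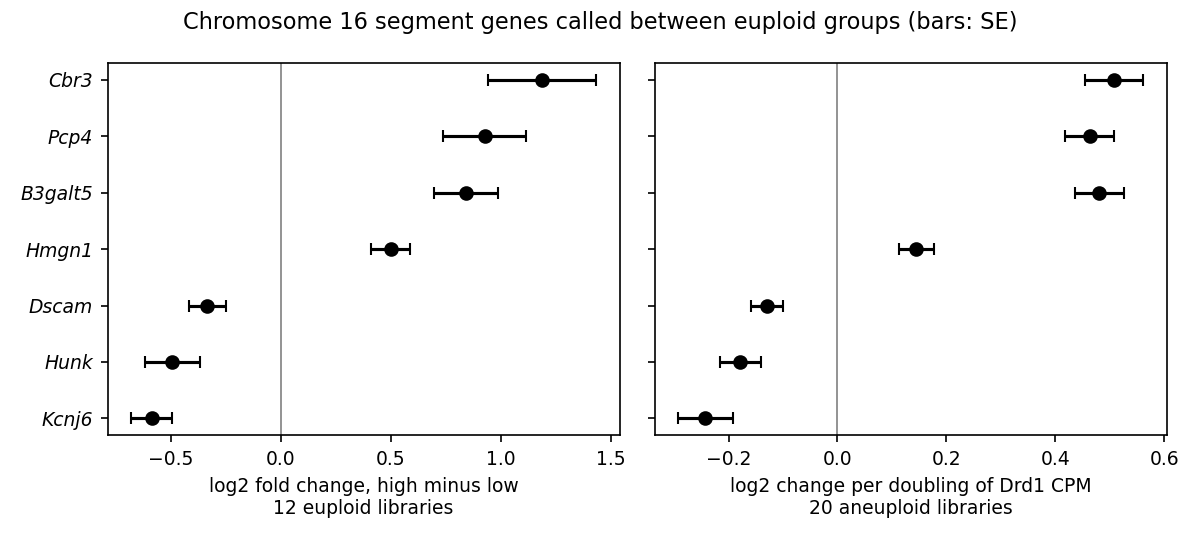
The 7 chromosome 16 segment genes called between the +/+ groups: log2 difference, high minus low, in 12 +/+ libraries (left) and log2 change per doubling of Drd1 CPM in 20 aneuploid libraries (right); bars are standard errors. Each gene lies on the same side of 0 in both panels, with Pcp4 at 0.93 and 0.46.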

How the data were processed

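RNA of cerebral cortex was sequenced from 32 mice after depletion of ribosomal RNA, per the labels' protocols. The authors deposited 1 table of raw counts per gene, whole numbers with no normalization, for 55401 genes, of which 55141 were matched by identifier to a GRCm38 annotation. The submitters' processing notes name STAR 2.7.9a, featureCounts (Subread 1.6.4), bcl2fastq 2.20 and, as builds, GRCh38 and GRCm38.p6. What each build served for and the strand setting are not given in the sources used here, so reads of overlapping genes on opposite strands cannot be told apart.

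The +/+ libraries were grouped by Drd1 CPM, and printed levels are CPM on that scale. The members and the gene lists were chosen with earlier results of these data known. In edgeR 4.0.16 (R 4.3.3), filterByExpr left 15678 genes with 99.71% of the counts in the +/+ libraries; TMM factors were 0.965 to 1.06. The quasi-likelihood F test used terms for sex and group (9 residual degrees of freedom), and p was adjusted by the Benjamini-Hochberg method over tested genes other than Drd1 with a threshold of 0.05. A standard error is the log2 difference divided by the square root of F. Slopes on log2 Drd1 CPM in the 20 aneuploid libraries had terms for genotype and sex (16 residual degrees of freedom). DESeq2 1.42.0 and limma 3.58.1 were alternatives. The code was tested on simulated data. Replicates are separate animals by label, numbered in accession order.

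Named genes are, without pseudogenes and provisional symbols, the 10 highest and 10 lowest folds among called genes of mean log2 CPM of 2 or more, 6 further genes of smallest p, 6 of smallest p in the aneuploid slope, up to 4 of smallest p in each of 34 lists, Drd2, Penk and Tac1, and the called genes of the chromosome 16 segment. Ppp1r1b is a fixed marker. Other genes with values were chosen after their values were seen, among them Slc17a7, Mbp, Fos, Vip, Drd5, Chrm3 and Prkar1b. Promoters are those of RefSeq on GRCm38.p6. Some genes are not reported here.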

Additional observations from a re-analysis of the deposited data

Results flagged for a closer look

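In 172 groups of per-library values (52 genes and 34 lists, each in the high and the low group), 10 held 1 library farther from the others than Dixon's 95% bound; chance flags about 1 in 20, which is 8.6 of 172. In the high group, +/+ replicate 11 held 121 CPM of Zic1 where the other 4 held 22 to 34.5, and a summed level of 168 CPM over the septal and basal forebrain list where the others held 40.8 to 53.0. Its summed level over the deep cortical layer list was 559 CPM against 602 to 615. High replicate 2 held 38.2 CPM of Neurod6 against 19.1 to 22.1. In the low group, replicate 1 held 835 CPM of Ttr against 4.15 to 288, 990 CPM over the choroid plexus list against 13.1 to 356, and 113 CPM of Pcp4 against 61.1 to 78.3. Low replicate 5 held 222 CPM of Cux2 against 166 to 190, replicate 7 held 1.23 CPM of Lhx8 against 0 to 0.396, and replicate 9 held 1.45 CPM of Crabp1 against 0 to 0.489.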

How the results depend on the processing

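The count of 1240 called genes was between 1231 and 1560 with size-factor or total-count scaling, DESeq2, limma voom, no filter on low counts and no sex term. Scaling by totals split it into 754 higher and 477 lower. It was 152 with the animal number term, 14 in the 8 higher-numbered animals alone (from 32333 up), and 503 (without replicate 6) to 1475 (without replicate 3) on leaving out single libraries; without replicate 9 it was 812. With the animal number term the median standard error of genes called higher went from 0.14 to 0.183. Of 127 list members called, 44 were called with that term, 7 in the higher-numbered animals alone, and 86 to 139 on leaving out single libraries. The 7 segment calls were 1, 0, and 3 to 8 under the same settings. The aneuploid count of 2784 was 1719 in Dp(16)1/Df(16)8 alone and 365 in Ts65Dn;Df(17)2 alone, and 2712 with the animal number term. The interaction count of 0 was 2 with no filter on low counts and 0 to 56 on leaving out single libraries. Of the 98 named genes called in +/+ libraries 69 kept their call without any 1 library, 42 with the animal number term and 10 in the higher-numbered animals alone. All 98 kept their direction with that term and in those animals. These fits reuse libraries that made the calls, so a kept direction is no further test. In Ts65Dn;Df(17)2 alone 4 named slopes changed sign, Cplx3 (0.0503), Gabrg1 (-0.12), Kcnk4 (0.15) and Lhfpl3 (-0.00889); the cause was not tested. No paired analysis was possible because replicate numbers follow accession order and both groups come from 1 genotype. At totals of 6375698 to 8532009 counts per library, genes below 1 CPM rest on few counts.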
